A study of Mus musculus with 6 samples.

Results

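Levels of mRNA for 10 G protein-coupled receptors through which hormones, nerves and nutrients reach the islet were followed over a day in mouse pancreatic islets. The receptors were those for glucagon-like peptide 1 (Glp1r), glucose-dependent insulinotropic polypeptide (Gipr) and glucagon (Gcgr), the melatonin receptors Mtnr1a and Mtnr1b, the adrenergic receptor Adra2a, the muscarinic receptor Chrm3, the somatostatin receptor Sstr3, the galanin receptor Galr1 and the free fatty acid receptor Ffar1. They were taken as every non-control probe whose transcript belonged to one of these genes, which gave 12 probes for 10 of the 32854 genes with a probe.

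Islets, the clusters of endocrine cells in the pancreas, were isolated with collagenase from male C57BL6 mice aged 8 weeks. All mice were fed chow and kept on a cycle of 12 h light and 12 h dark, with no other treatment or genotype in the design. Collection was every 4 h, at zeitgeber time (ZT) 0, 4, 8, 12, 16 and 20, where lights came on at ZT0 and went off at ZT12. Each time point was a pool of RNA from 3 to 5 mice on 1 array, so no time point had a replicate and the spread between mice was not measured. Each time point was 1 group, and the question was whether the level of a transcript varied with the time of day.

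Incretins are gut hormones released after a meal that raise insulin secretion only when glucose is high. Their receptors and the glucagon receptor couple to the stimulatory G protein Gs and raise cyclic AMP in the beta cell. Receptors for noradrenaline, somatostatin, galanin and melatonin couple mainly to inhibitory G proteins of the Gi class and lower insulin release, whereas muscarinic and fatty acid receptors couple mainly to Gq and potentiate it. Beta, alpha and delta cells each carry their own subset of these receptors, so a change in the mix of cells in an islet preparation also changes the measured transcripts.

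Levels are given as log2 of the processed spot signal minus the 75th percentile of the array, so that 0 is the 75th percentile, 1 is a doubling and the scale holds for 1 probe across arrays, not between probes. Of the 43020 spots, 66.1% to 84.4% on each array were well above background and 0 were saturated, and the 75th percentile ran from 506 intensity units at ZT4 to 2090 at ZT8. The 4 arrays from ZT8 to ZT20 lay on the same slide and were read in 1 scan, the ZT4 array was read in another scan and the ZT0 array in the third scan, on the later date. The ZT0 array held 1743 outlier spots against 166 to 247 on the other arrays. The number of arrays limits the precision. Marker lists differed widely between arrays. The summed level of 11 endocrine transcription factors, in multiples of the 75th percentile, was 73.3 at ZT0, 36.5 at ZT8, 64.4 at ZT16 and 68.7 at ZT20, but 10.4 at ZT4 and 10.3 at ZT12. The sum of 12 lymphocyte markers was 366 at ZT4 and 263 at ZT12 against 15.9 to 92.2 on the other 4 arrays. That of 7 macrophage markers was 222 and 105 against 8.01 to 24.6. A sum follows its brightest members, and not every member went with it. At ZT4 the macrophage markers Lyz2 (-3.28) and C1qa (-1.18) were below their ZT8 levels (1.15 and 0.07). So were the lymphocyte markers Ptprc (-1.84 against 1.36) and Cd79a (-2.10 against -1.43). The other members of both lists were higher at ZT4 than at ZT8. Of the 11 endocrine factors, 8 were well above background at ZT4 and 10 at ZT12. The labelled tissue was therefore present on every array by its defining markers, at a lower level on these 2. In bulk RNA, fewer cells of a type and less RNA per cell cannot be told apart.

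**Figure D1:**
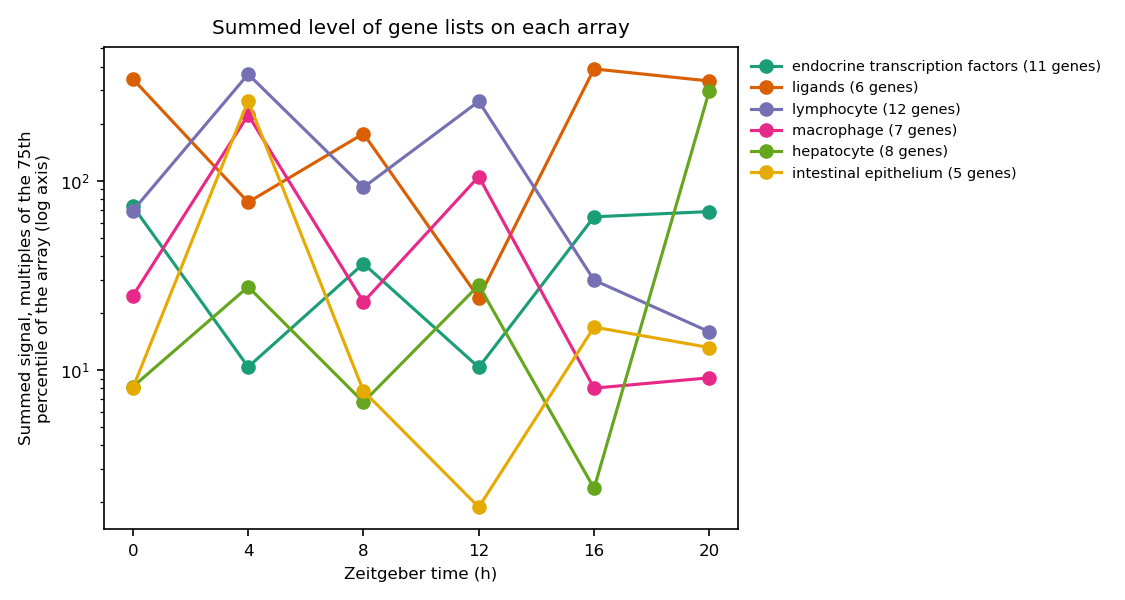
Summed level of 6 gene lists on each array, in multiples of the 75th percentile of the array on a log axis, against zeitgeber time in h; each point is 1 array. The endocrine transcription factors and the ligand list (Gcg, Sst, Gal, Vip, Npy and Pyy) are low at ZT4 and ZT12. The lymphocyte and macrophage sums are high there. The hepatocyte list is high at ZT20 (299) and the intestinal list at ZT4 (264).

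Promoter windows of 250 bases before the RefSeq gene start on GRCm38.p6 were used for 8 of the 10 receptors (all but Gipr and Galr1), 9 windows in all because Sstr3 had 2 starts. The 4 windows shown belong to Adra2a, Sstr3 and Gcgr, whose levels had a similar order of arrays, and to Mtnr1a. Capitals mark the letters CACGTG, the canonical E-box bound by the clock activators CLOCK and BMAL1, searched on both strands (the letters are their own reverse complement). All 4 are written 5′ to 3′ on the strand of the gene.

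Adra2a, chr19:54045009-54045258, plus strand: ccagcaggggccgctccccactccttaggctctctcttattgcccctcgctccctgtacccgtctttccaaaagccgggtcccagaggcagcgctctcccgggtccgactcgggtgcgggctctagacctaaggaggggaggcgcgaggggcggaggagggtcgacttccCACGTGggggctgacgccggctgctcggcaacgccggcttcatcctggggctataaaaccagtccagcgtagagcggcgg
Sstr3, chr15:78544346-78544595, minus strand: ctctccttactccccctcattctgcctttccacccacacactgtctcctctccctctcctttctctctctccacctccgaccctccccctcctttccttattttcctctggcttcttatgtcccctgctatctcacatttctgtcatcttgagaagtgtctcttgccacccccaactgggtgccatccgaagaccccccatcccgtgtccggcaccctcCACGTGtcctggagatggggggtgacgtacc
Mtnr1a, chr8:45068857-45069106, plus strand: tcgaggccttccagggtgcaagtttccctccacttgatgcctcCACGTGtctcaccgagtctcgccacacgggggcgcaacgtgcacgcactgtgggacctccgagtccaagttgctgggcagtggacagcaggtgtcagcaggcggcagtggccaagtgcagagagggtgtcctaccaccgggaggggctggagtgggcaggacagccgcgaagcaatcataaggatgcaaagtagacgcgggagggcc
Gcgr, chr11:120530477-120530726, plus strand: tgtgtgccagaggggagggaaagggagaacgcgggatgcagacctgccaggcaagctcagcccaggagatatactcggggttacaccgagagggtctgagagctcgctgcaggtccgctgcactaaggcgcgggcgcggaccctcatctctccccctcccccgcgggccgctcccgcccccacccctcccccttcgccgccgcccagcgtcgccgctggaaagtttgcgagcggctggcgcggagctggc

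The E-box began 80 bases before the start of Adra2a, 31 bases before that of Sstr3 and 207 bases before that of Mtnr1a. It was found in 3 of the 9 windows, against 6.02% of all 32851 windows of this length, and the Gcgr window did not hold these letters. The D-box TTATGTAA was in 0 of the 9 windows (0.819% of all) and the cAMP response element TGACGTCA in 0 of the 9 (1.55% of all), both searched on both strands. A match is a description of the letters in the window and not of binding.

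Detection differed among the receptors. A total of 9 probes, for 8 receptors, were well above background on all 6 arrays. The Chrm3 probe was so on 5 arrays, and the Ffar1 probe and a second Mtnr1a probe on 2 each. The test across time used genes well above background on at least 3 arrays with no outlier spot, which kept 7 receptors (Glp1r, Gipr, Gcgr, Adra2a, Chrm3, Sstr3 and Galr1) and left out Mtnr1a, Mtnr1b and Ffar1. The scanner's own error of a bright spot was about 10% of its signal, or 0.14 on the log2 scale, and covers the reading of 1 spot only.

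**Figure D2:**
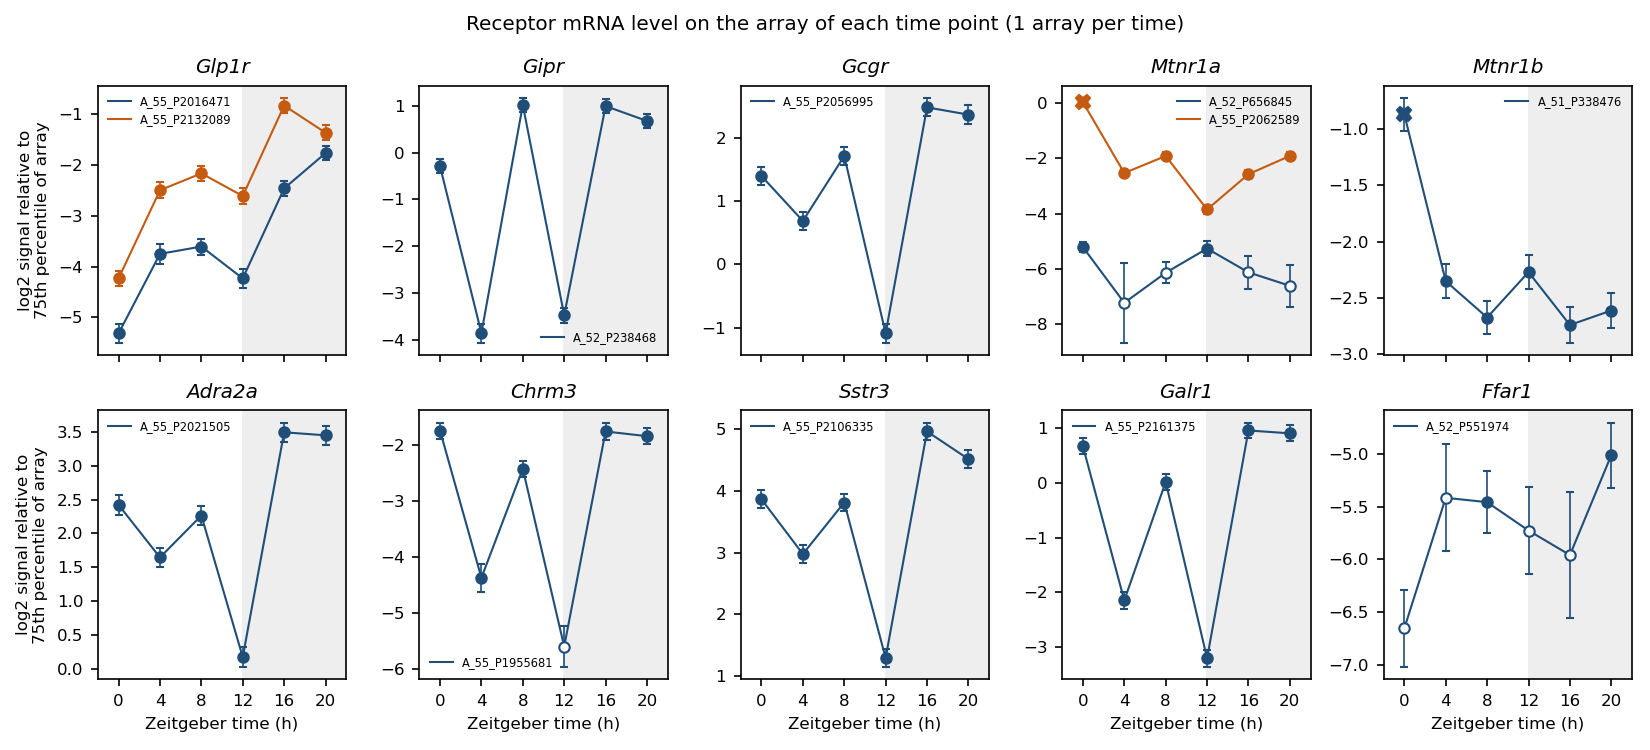
Level of each receptor (log2 of processed signal relative to the 75th percentile of the array) against zeitgeber time in h, with 1 array per time and a line per probe; bars are the scanner's error of the spot, grey marks the dark phase, open symbols are spots not well above background and crosses are outlier spots. Gcgr, Adra2a, Chrm3, Sstr3 and Galr1 are lowest at ZT12 and Gipr at ZT4, whereas both Glp1r probes are lowest at ZT0.

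Among the Gs-coupled receptors, Glp1r, the beta-cell receptor for the incretin GLP-1 and the target of incretin mimetic drugs, did not follow the other 6 tested receptors. On the probe in the test (A_55_P2132089) its level was -4.23, -2.50 and -2.16 at ZT0, ZT4 and ZT8 and -2.61, -0.82 and -1.36 at ZT12, ZT16 and ZT20. The 2 arrays after ZT12 were high and the ZT0 array was low, and the ZT4, ZT8 and ZT12 arrays lay between, with neighbours in that order within 2 scanner errors of each other. ZT16 was 10.6-fold above ZT0. ZT0 decided much of that range, since without that array the range was 1.78 on the log2 scale, or 3.45-fold.

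The second Glp1r probe (A_55_P2016471) read -5.32, -3.75 and -3.61 at ZT0, ZT4 and ZT8 and -4.24, -2.46 and -1.76 at ZT12, ZT16 and ZT20. It also had its lowest value at ZT0 and its high values at ZT16 and ZT20, with ZT20 11.8-fold above ZT0. The probes disagreed on the order within the night, because ZT20 was 1.62-fold above ZT16 on this probe and 0.690-fold of ZT16 on the other. Within the shared slide, ZT16 was 3.45-fold above ZT12 on the first probe and 3.43-fold on the second. Glp1r was the only one of the 7 tested receptors for which ZT4 and ZT12 were not the 2 lowest arrays.

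Gipr encodes the receptor for the other incretin, GIP, and is expressed in beta cells and also in fat. Its level was -0.29, -3.85 and 1.01 at ZT0, ZT4 and ZT8 and -3.47, 0.99 and 0.67 at ZT12, ZT16 and ZT20. The arrays fell into 2 levels, with ZT4 and ZT12 low and within 2 scanner errors of each other, and the other 4 high. ZT8 was 29.2-fold above ZT4, the widest measured range among the tested receptors. Even the lowest of the 4 high arrays, ZT0, was 11.8-fold above ZT4 and 9.05-fold above ZT12. Within the shared slide, ZT8 was 22.4-fold and ZT16 22.0-fold above ZT12. The summed level of 4 adipocyte markers was highest at ZT4 (12.3 against 1.66 to 7.36 on the other arrays), where Gipr was lowest. Nearly all of that sum was Fabp4, at a log2 level of 3.60 at ZT4, and Cidec of the same list (-4.24 at ZT4) was not highest there. The part of fat cells in the Gipr level was not tested.

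Gcgr encodes the glucagon receptor, best known from liver and also present on beta cells. Its level was 1.40, 0.69 and 1.71 at ZT0, ZT4 and ZT8 and -1.09, 2.48 and 2.37 at ZT12, ZT16 and ZT20. The ZT12 array stood below the others, and ZT4 was next but only 1.64-fold below ZT0. ZT16 was 11.9-fold above ZT12, and ZT8 was 6.96-fold above it on the same slide. The sum of 8 hepatocyte markers was 299 at ZT20 and 2.37 at ZT16, and the level of Gcgr at these 2 times was within 2 scanner errors. The part of liver cells in the Gcgr level was not tested.

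Among the Gi-coupled receptors, Adra2a, the alpha-2A adrenergic receptor that mediates the inhibition of insulin release by noradrenaline, had a level of 2.42, 1.64 and 2.26 at ZT0, ZT4 and ZT8 and 0.17, 3.49 and 3.45 at ZT12, ZT16 and ZT20. ZT16 and ZT20 were high and alike, ZT0 and ZT8 were alike and lower, and ZT12 was lowest. ZT16 was 9.99-fold above ZT12, whereas ZT8 was only 1.54-fold above ZT4 and 4.26-fold above ZT12.

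Sstr3 encodes a receptor for somatostatin, the inhibitory hormone of delta cells, and is found on the primary cilium of beta cells. It read 3.86, 2.98 and 3.81 at ZT0, ZT4 and ZT8 and 1.29, 4.96 and 4.51 at ZT12, ZT16 and ZT20. The order of the arrays was close to that of Adra2a and Gcgr, with ZT16 12.7-fold above ZT12 and ZT8 1.78-fold above ZT4 and 5.72-fold above ZT12. For Gcgr, Adra2a and Sstr3 alike, ZT4 was thus less than 2-fold below the next array and the low value rested on ZT12.

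Galr1 encodes a receptor for galanin, a neuropeptide of islet nerves that inhibits insulin secretion. Its level was 0.66, -2.15 and 0.01 at ZT0, ZT4 and ZT8 and -3.20, 0.95 and 0.90 at ZT12, ZT16 and ZT20. The ZT4 and ZT12 arrays were both low, and ZT16 was 17.7-fold above ZT12. The lowest of the other 4 arrays, ZT8, was 4.46-fold above ZT4 and 9.25-fold above ZT12, while those 4 differed among themselves by 0.94 on the log2 scale, or 1.91-fold.

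The melatonin receptors Mtnr1a and Mtnr1b, which couple to Gi, were not tested, because each had an outlier spot at ZT0. The arrays do not measure melatonin itself. The brighter Mtnr1a probe (A_55_P2062589) read 0.04 at ZT0, where the spot was an outlier, then -2.53 and -1.91 at ZT4 and ZT8, and -3.85, -2.57 and -1.91 at ZT12, ZT16 and ZT20. The ZT0 spot was 3.85-fold above the next array, and without it the range was 1.94 on the log2 scale, or 3.83-fold, with ZT12 lowest. The other Mtnr1a probe (A_52_P656845) was well above background at ZT0 (-5.21) and ZT12 (-5.26) only. Its other spots, -7.22 at ZT4, -6.14 at ZT8, -6.12 at ZT16 and -6.61 at ZT20, were not well above background, and the scanner's error reached 99.6% of the signal at ZT4. On this probe ZT0 was 1.04-fold above ZT12, within 2 scanner errors, whereas on the brighter probe the ZT0 outlier spot was 14.7-fold above ZT12, so the probes disagreed on that step.

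Mtnr1b, the locus of whose human counterpart is linked to fasting glucose, read -0.87 on an outlier spot at ZT0, then -2.35 and -2.67 at ZT4 and ZT8, and -2.27, -2.74 and -2.61 at ZT12, ZT16 and ZT20. The ZT0 spot was 2.64-fold above the next array. The other 5 arrays lay within 0.47 on the log2 scale, or 1.38-fold, and each was within 2 scanner errors of its neighbour in level. On this scale Mtnr1b was the flattest of the 10 receptors over these 5 arrays, and it was not low at ZT4 or ZT12. Relative to the endocrine transcription factors, a scale given below, it was not flat, with 0.09 at ZT12 and -4.04 at ZT16.

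Among the Gq-coupled receptors, Chrm3, the muscarinic receptor through which acetylcholine from the vagus nerve augments insulin release, read -1.74, -4.38 and -2.42 at ZT0, ZT4 and ZT8 and -5.61, -1.75 and -1.84 at ZT12, ZT16 and ZT20, with the ZT12 spot not well above background. The 4 arrays other than ZT4 and ZT12 lay within 0.68 on the log2 scale, or 1.61-fold. ZT0 was 14.6-fold above the ZT12 spot as measured. ZT8, the lowest of the 4, was 3.87-fold above ZT4 and 9.07-fold above that ZT12 spot. With the alternative normexp background correction, ZT0 read -1.72 and ZT12 -4.03, a smaller step. Chrm3 is also a receptor of smooth muscle and acinar cells. The summed markers of both were highest at ZT4, where Chrm3 was low (219 for 7 smooth muscle and 1798 for 9 acinar genes). On the other arrays these sums were 19.0 to 63.5 and 440 to 1537. At ZT12, where Chrm3 was lowest, the acinar sum was also lowest (440) and the smooth muscle sum was 63.5. The part of these cells in the Chrm3 level was not tested.

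Ffar1, the beta-cell receptor GPR40 for long-chain fatty acids, was at the edge of detection. It read -6.65, -5.41 and -5.46 at ZT0, ZT4 and ZT8 and -5.73, -5.96 and -5.01 at ZT12, ZT16 and ZT20, and was well above background at ZT8 and ZT20 only. ZT20 was 3.12-fold above the ZT0 spot as measured. With the alternative normexp background correction, ZT20 read -3.91 and ZT0 -4.72, a smaller step. Differences among the other arrays could not be read at this signal.

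The shared feature of the tested receptors was a low level at ZT4 and ZT12. These were the 2 lowest arrays for 6 of the 7, beside 18.1% of all 24367 genes tested. For 3 of the 7 (Gipr, Chrm3 and Galr1) both arrays were at least 2-fold below each of the other 4, beside 4.32% of all genes, and for 2 of the 7 (Chrm3 and Galr1) the other 4 arrays differed by less than 2-fold, beside 35.4% of all genes. All 7 had a range of at least 2-fold, as did 90.2% of all genes, so that count alone says little. The median range was 3.67 on the log2 scale over the 7 receptors and 2.10 over all genes. The low arrays were those with low summed endocrine factors and high summed lymphocyte and macrophage markers. The part of these cells in the receptor levels was not tested. Within the 4 arrays of the shared slide, ZT12 was the lowest for all 7 receptors, by 1.36-fold from ZT8 for Glp1r and by the larger folds above for the others. The share of all genes lowest at ZT12 among these 4 arrays was not counted, so that count alone cannot be judged. Over all 6 arrays ZT12 was lowest for Gcgr, Adra2a, Chrm3, Sstr3 and Galr1, beside 21.2% of all genes. Without the ZT12 array the log2 range was 1.79 for Gcgr, 1.85 for Adra2a and 1.98 for Sstr3. With it these ranges were 3.57, 3.32 and 3.67, so that array set a large share of them. For Chrm3 and Galr1, also low at ZT4, the range fell less, from 3.87 to 2.64 and from 4.15 to 3.09. After quantile normalization the lowest array of each of the 7 was the same, whereas with normexp background correction that of Gipr moved from ZT4 (-2.52) to ZT12 (-2.95).

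Tests across time called none of the receptors. A cosine of 24 h period was fitted with limma to each gene over the 6 arrays, and 0 of 24367 genes (0%) had a Benjamini-Hochberg adjusted p under 0.05. At an unadjusted p under 0.05 limma called 985 genes (4.04%) and 0 of the 7 receptors. Fitted amplitudes (peak minus trough, log2) with their SE were 2.94 ± 1.47 for Galr1, with a fitted peak at ZT20.6, and 2.17 ± 1.11 for Adra2a, with a peak at ZT20.4; limma gave unadjusted p of 0.206 and 0.216. The amplitudes were 2.65 ± 1.41 for Chrm3, fitted with its undetected ZT12 value as measured, 2.63 ± 2.06 for Gipr, 2.01 ± 1.21 for Sstr3, 1.98 ± 1.09 for Glp1r and 1.90 ± 1.26 for Gcgr. The fitted peaks lay between ZT18.6 and ZT21.0 for 6 receptors and at ZT15.1 for Glp1r. They turned on the setting. Quantile normalization gave ZT18.4 for Gipr and ZT21.0 for Chrm3, close to the main fit. With the scan as a block the peaks were ZT0.84 for Gipr, ZT0.05 for Chrm3 and ZT19.7 for Glp1r. On the scale of the endocrine transcription factors, given below, they were ZT7.6 for Gcgr and ZT7.9 for Sstr3. A common peak time was thus not settled. The limma adjusted p was 0.751 for Glp1r, Adra2a, Chrm3, Sstr3 and Galr1, 0.756 for Gcgr and 0.785 for Gipr. The median amplitude was 2.17 over the 7 receptors and 1.33 over all genes.

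For the untested receptors the same fit was made with the filters lifted. Mtnr1a had an amplitude of 2.60 (limma unadjusted p 0.0947, adjusted 0.740) with the outlier spot kept and 1.46 ± 1.13 (limma unadjusted p 0.481) without the ZT0 array. Mtnr1b had limma unadjusted p of 0.478 with the outlier spot and 0.957 without the ZT0 array, where its amplitude was 0.19 ± 0.65. The amplitude of Ffar1 was 0.29 ± 0.87 with no filter on dim probes. On the 4 arrays of the shared slide alone the amplitude was 3.04 for Mtnr1a (limma unadjusted p 0.248) and 0.35 for Mtnr1b (limma unadjusted p 0.945).

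Light and dark were compared with limma as ZT0, ZT4 and ZT8 against ZT12, ZT16 and ZT20; the arrays of a phase are different times and not replicates. No gene passed at an adjusted p under 0.05 (0%), and 819 genes (3.36%) but 0 of the 7 receptors had an unadjusted limma p under 0.05. The difference, light minus dark on the log2 scale, was -1.37 ± 0.74 (SE) for Glp1r (limma unadjusted p 0.105). It was -0.44 ± 1.55 for Gipr, 0.01 ± 0.98 for Gcgr, -0.26 ± 0.92 for Adra2a, 0.22 ± 1.17 for Chrm3, -0.04 ± 0.97 for Sstr3 and -0.04 ± 1.25 for Galr1. The 3 light arrays and the 3 dark arrays overlapped for all 7 receptors, as they did for all but 9.4% of genes. Each phase held 1 of the 2 low arrays. With other sets of arrays the difference for Glp1r ran from -0.56 on the shared slide alone and -0.73 without ZT0 to the values that follow. The sign was not settled for the other 6, since it turned under at least 1 alternative for each. Without the ZT12 array the difference was -1.87 ± 0.72 for Glp1r (limma unadjusted p 0.0364, adjusted 0.293) and -1.36 ± 0.49 for Adra2a (limma unadjusted p 0.0280, adjusted 0.276), where 15.7% of all genes had an unadjusted p under 0.05. Leaving out ZT4 and ZT12 together, which was chosen after seeing the data and leaves 2 arrays a phase, gave -2.11 ± 0.77 for Glp1r (limma unadjusted p 0.0423, adjusted 0.314) and -1.13 ± 0.35 for Adra2a (limma unadjusted p 0.0249, adjusted 0.289), where that share was 15.4%.

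The receptors were also set against the mean of the 11 endocrine transcription factors on each array, which shows each receptor relative to those factors. That mean was 1.31, -1.81 and 0.82 at ZT0, ZT4 and ZT8 and -2.36, 1.30 and 1.40 at ZT12, ZT16 and ZT20. Galr1 then read -0.65, -0.33, -0.81, -0.84, -0.35 and -0.51 in the order of time, a range of 0.51 where it had been 4.15. Galr1 was well above background on all 6 arrays and stayed within 2-fold over them, as did 0.349% of all genes, and the median gene had a range of 4.45 on this scale. Chrm3 read -3.05, -2.56, -3.25, -3.05 and -3.24 on the 5 arrays where it was well above background, a range of 0.69. At ZT12, where the spot was not well above background, Chrm3 read -3.24 as measured. With the 8 factors detected on all arrays the range of Galr1 was 0.66 and that of Chrm3 on its 5 arrays 0.10. With quantile normalized values they were 0.68 and 1.15, so Chrm3 passed 2-fold in the last of these scalings. Under 2-fold on these added scales were 0.653% and 0.308% of all genes, and both scales were chosen after seeing the data.

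Gcgr, Adra2a and Sstr3 turned the other way on this scale. Relative to the factors, Sstr3 was highest at ZT4 (4.79) and lowest at ZT0 (2.56), with 2.99 to 3.66 on the other 4 arrays. Adra2a was likewise highest at ZT4 (3.46) and lowest at ZT0 (1.11), and Gcgr highest at ZT4 (2.50) and lowest at ZT0 (0.09). Their ranges of 2.23, 2.35 and 2.41 were narrower than on the first scale, but the array that stood apart was ZT4, because their values there were less low than those of the factors. Gipr kept ZT4 as its lowest array (-2.04) and ZT8 as its highest (0.19). Glp1r had its range widened from 3.41 to 5.29, with ZT0 lowest (-5.54) and ZT12 highest (-0.25). Which array is high or low for these receptors thus turns on the scale, apart from the low ZT0 value of Glp1r and the ZT4 and ZT8 values of Gipr, which were the same on both.

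**Figure D3:**
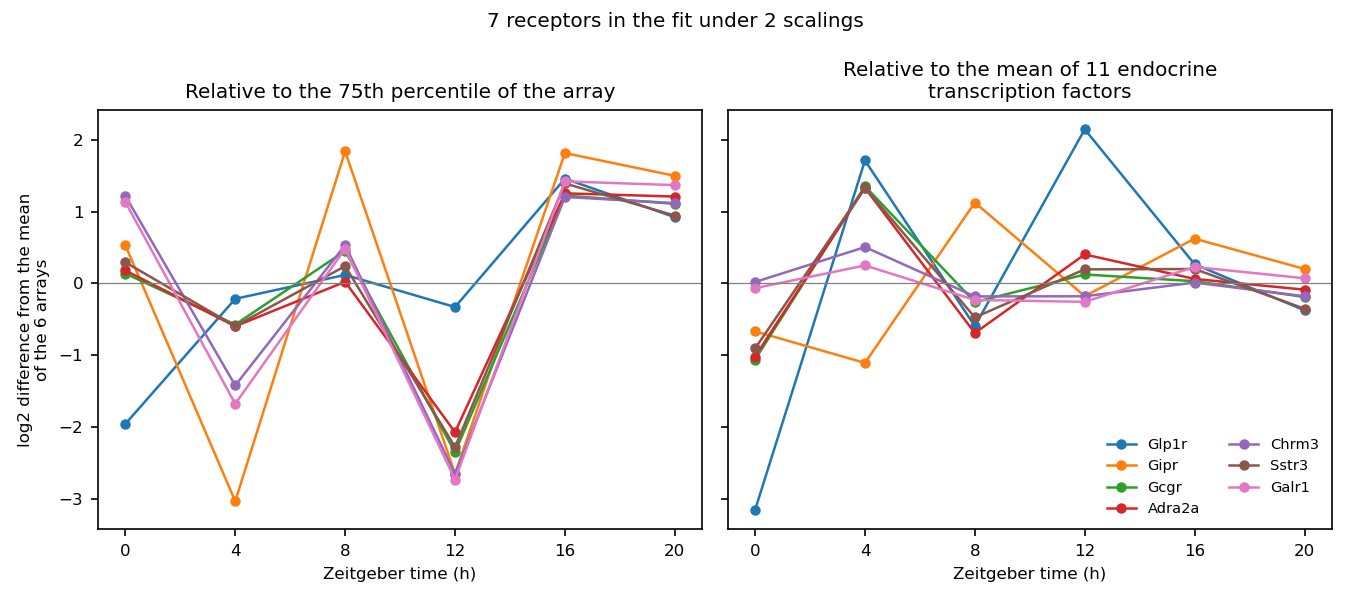
The 7 tested receptors as log2 difference from their own mean of the 6 arrays, against zeitgeber time in h, on the scale of the 75th percentile (left) and relative to the mean of 11 endocrine transcription factors (right); each point is 1 array and there are no error bars because no time had a replicate. The dips at ZT4 and ZT12 on the left flatten on the right for Galr1 and Chrm3 (whose ZT12 spot was not well above background), Gipr stays low at ZT4, and Glp1r stays low at ZT0.

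The genes around these receptors were taken from lists of other islet receptors, receptor ligands and the cAMP and G protein pathway. Of 30 other islet receptors measured of 33 listed, ZT4 and ZT12 were the 2 lowest arrays for 10, beside 18.1% of all genes, and 28 had a range of at least 2-fold, beside 90.2%. At an unadjusted limma p under 0.05 the cosine called 0 of the 30 and the light and dark comparison 1, and 0 passed the adjusted test in either. That gene, named after its value was seen, was Adra2c, another alpha-2 adrenergic receptor. It was well above background on the 3 light arrays and on 0 of the 3 dark arrays. Its light minus dark difference was 1.56 ± 0.51 (limma unadjusted p 0.0173, adjusted 0.954). Adra2c passed the filter only through the light arrays, where it was high, and its dark values were undetected spots. The filter and the comparison were thus not independent, and no conclusion is drawn from that p. Sstr5, the other main somatostatin receptor of beta cells, read 6.70 at ZT0 and between 2.59 and 3.45 on the other 5 arrays. For Sstr5 the ZT4 array was the second highest, unlike for Sstr3. Sstr2, the somatostatin receptor of alpha cells, read -4.90 at ZT8, -5.17 at ZT12 and -4.64 at ZT20 and was not well above background at ZT0, ZT4 and ZT16. Vipr1, a receptor for the neuropeptide VIP, stayed between 2.52 and 3.12 on all 6 arrays.

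The ligand list had 6 genes measured of 8 listed. Gcg, Sst and Gal encode ligands of the receptors followed here, whereas Vip, Npy and Pyy encode ligands of other receptors. ZT12 was the lowest array for all 6, beside 21.2% of all genes. For 5 of them, all but Gal, ZT4 and ZT12 were the 2 lowest arrays, beside 18.1%. The limma cosine called 0 of the 6, also at an unadjusted p under 0.05. Sst, which encodes somatostatin, read 6.75, 3.58 and 5.31 at ZT0, ZT4 and ZT8 and 1.72, 6.77 and 6.60 at ZT12, ZT16 and ZT20. It was low on the arrays where Sstr3 was low. Gcg, the gene of glucagon and GLP-1, read 7.83, 5.84 and 6.87 at ZT0, ZT4 and ZT8 and 4.20, 7.56 and 7.32 at ZT12, ZT16 and ZT20. Gal, which encodes galanin, read -1.17 at ZT12, 0.25 to 0.65 at ZT0, ZT4, ZT8 and ZT16, and 2.36 at ZT20, and so did not share the low ZT4 value of its receptor Galr1.

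In the cAMP and G protein pathway 35 of 37 listed genes were measured, 12 had ZT4 and ZT12 as the 2 lowest arrays, beside 18.1% of all genes, and 30 a range of at least 2-fold, beside 90.2%. The limma cosine called 0 after adjustment and 1 at an unadjusted p under 0.05. That gene was Adcy5, an adenylyl cyclase that makes cAMP, which read -2.66, -0.24 and -2.07 at ZT0, ZT4 and ZT8 and -0.43, -4.27 and -4.63 at ZT12, ZT16 and ZT20. Its amplitude was 3.93 ± 1.22 with a fitted peak at ZT6.98 (limma unadjusted p 0.0415, adjusted 0.751), and it was highest on the 2 arrays where most of the receptors were lowest. Pde1c, a phosphodiesterase that degrades cyclic nucleotides, read -3.57 at ZT0, -2.95 at ZT8 and -3.67, -1.43 and -1.73 at ZT12, ZT16 and ZT20, with a ZT4 spot that did not clear background. Its 2 highest arrays, ZT16 and ZT20, were also those of Glp1r, Gcgr, Adra2a, Sstr3 and Galr1. Gnas, the alpha subunit of Gs to which the incretin receptors couple, ranged only from 5.76 to 6.49. Gnai2, an alpha subunit of Gi, read 6.96 and 7.06 at ZT0 and ZT4 and between 4.74 and 5.82 on the other 4 arrays.

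For each receptor well above background on all 6 arrays, the gene with the most similar pattern was taken by Pearson's r over the 6 arrays among the 13842 to 13843 other named genes detected on all arrays. These r values are descriptions over 6 points that share the array, its scale and its cell mix. Glp1r was closest to Slc4a1, the anion exchanger of red blood cells, on the probe in the test (r = 0.997) and to Ephb2, an ephrin receptor, on the second probe (r = 0.990). Gipr was closest to Snrpn (r = 0.993), Gcgr to Gm4791 (r = 0.9996), Adra2a to Rab9b (r = 0.998), Sstr3 to Otud7a (r = 0.999) and Galr1 to Frzb (r = 0.999). Such high values were common, since 378 genes had r over 0.95 with Gcgr, 418 with Adra2a, 424 with Sstr3 and 468 with Galr1, against 150 with Gipr and 186 with Glp1r. The closest genes to Mtnr1a (Vmn1r192, r = 0.998) and Mtnr1b (4921524J17Rik, r = 0.998) rest on the ZT0 outlier spots.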

How the data were processed

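Scanner files came from Agilent Feature Extraction 11.0.1.1, per their headers. Per the file headers, the processed signal was a linear Cy3 intensity, background-subtracted and detrended, with no normalization between arrays. Other deposited columns marked outlier spots and those well above background with 0 or 1. The authors' deposited value table held log2 values for 30170 probes with medians of 8.62 to 8.63; the steps behind it are not given in the sources used here. Control spots were removed and spots of a probe averaged, giving 39429 probes, of which 27234 (69.1%) took a symbol from RefSeq GRCm38.p6. Values were log2 signal minus the 75th percentile. A probe was tested if well above background on at least 3 arrays with no outlier spot (1414 probes removed by the latter), and the brightest tested probe stood for each gene, 24367 genes in all. A fold against a spot not well above background uses the higher of that spot and the lowest detected signal. It is given as measured and is not a bound. Tests used limma 3.58.1 in R 4.3.3 (3 residual degrees of freedom for the cosine) with Benjamini-Hochberg adjustment over all genes. The fitting code was checked on simulated data with independent noise smaller than the spread of the real data. That check does not measure power or false calls in these data. Alternatives covered scaling, background, the value table, filters, arrays left out and scan.

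The receptors and gene lists were chosen with earlier results of these data known. Named list genes were the 2 of smallest cosine p and the 2 of highest mean signal in each list, a choice of genes and not a comparison of levels between probes; Adra2c and the adipocyte genes were named after their values were seen.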

Additional observations from a re-analysis of the deposited data

How the results depend on the processing

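No paired analysis was possible because each time point had 1 array. The spread between mice was not measured, dim spots limited Ffar1 and the second Mtnr1a probe, and an exact permutation of array order cannot go below p = 0.0167. The adjusted cosine test called 0 genes under every alternative except scaling to the 8 detected endocrine transcription factors, which was added after seeing the data and called 8 genes, none of them one of the receptors; the cause was not tested. The light and dark comparison called 0 genes under all alternatives run. Unadjusted cosine calls by limma ran from 324 without ZT20 to 4026 without ZT8, against 985; without ZT8 the amplitude of Gipr was 6.60 (limma unadjusted p 0.00351, adjusted 0.227), of Galr1 5.51 and of Chrm3 5.01. With normexp background correction the log2 range was 3.92 for Gipr and 2.38 for Chrm3. Of 493 combinations of a value and an alternative, 423 were labelled as kept, 39 moved and 31 changed sign. All 31 were light minus dark values that passed no adjusted test. Light minus dark values were kept if sign and side of the threshold stayed, and ranges and counts if they moved by at most 1.5-fold. Amplitudes were kept if the side of the threshold stayed, with no check of size or peak time. As no amplitude came near the threshold in the main fit, that label says little for them. No amplitude passed the adjusted test, but their sizes varied: that of Galr1 ran from 0.29 relative to the endocrine factors to 5.51, and that of Chrm3 from 0.24 to 5.01. With 1 array left out the light minus dark differences ran from -1.87 to 0.96 for Gipr, -1.16 to 0.63 for Gcgr, -1.36 to 0.30 for Adra2a, -1.05 to 0.98 for Chrm3, -1.19 to 0.65 for Sstr3 and -1.41 to 0.79 for Galr1. For Gcgr that difference turned to -0.058 with quantile normalization, -0.079 with the array median, -0.058 in the authors' deposited table and -0.057 with the detected endocrine factors. For Galr1 it turned to 0.025 with normexp. The shared slide alone and scan as a block both gave 1.62 for Gipr, 0.22 for Sstr3 and 0.46 for Galr1. Without ZT4 and ZT12 the difference was -0.87 for Gcgr and -0.28 for Chrm3, and without ZT0 and ZT12 -1.22 and -1.60. The causes were not tested. Scan as a block left 1 residual degree of freedom.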
